A study of Mus musculus with 4 samples.

Results

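The genes described here are those of the cyclin-dependent kinase (CDK) inhibitors and the pocket proteins of the retinoblastoma family, measured with Affymetrix arrays in mouse marrow cells that lack or carry Klf7, which encodes a Kruppel-like zinc finger transcription factor. The 10 members were chosen by family: Cdkn1a, Cdkn1b, Cdkn1c, Cdkn2a, Cdkn2b, Cdkn2c, Cdkn2d, Rb1, Rbl1 and Rbl2. A gene was measured where a probe set listed it as its only gene. This held for 9 of the 10 members, with 10 probe sets among the 28939 tested, which cover 19938 named genes. Cdkn1a, the p21 gene, was left out because its probe set also lists another gene, and it is not analysed here. Cdkn1b was read by 2 probe sets and the other 8 measured members by 1 each.

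There were 2 arrays of Klf7-/- cells and 2 of Klf7+/+ cells, called knockout and wild-type arrays. All held cells of bone marrow from the KLS gate (Lin- c-Kit+ Sca-1+), which holds hematopoietic stem and early progenitor cells, on a C57Bl/6 background. The cells came from chimeric mice made with fetal liver cells, whose marrow held both genotypes, so knockout and wild-type cells alike had developed in a transplanted host. The age of the mice, their number per array, the part of Klf7 that was deleted and the way cells of the 2 genotypes were told apart are not given in the sources used here. Nothing says that the 2 arrays of a genotype came from separate animals, so p-values reflect the spread among these 4 samples alone, and that spread may be technical.

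Progress from G1 into S phase depends on cyclin D with CDK4 or CDK6 and on cyclin E with CDK2, which phosphorylate the pocket proteins. Unphosphorylated pocket proteins hold E2F transcription factors in check, RB1 mainly the activating E2Fs, and RBL1 (p107) and RBL2 (p130) mainly E2F4 and E2F5, with which they form the DREAM repressor complex. The INK4 inhibitors, encoded by Cdkn2a to Cdkn2d, bind CDK4 and CDK6, whereas the Cip/Kip inhibitors p21, p27 and p57, encoded by Cdkn1a to Cdkn1c, act on cyclin-CDK complexes, chiefly those of CDK2. In hematopoietic stem cells these genes are known for keeping the cells quiescent: p57 and p27 for holding them out of the cycle, p18 for limiting self-renewal, and the Cdkn2a locus for being silenced by Polycomb. Studies of the mouse nervous system have linked Klf7 to Cdkn1a and Cdkn1b.

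Promoter sequences are shown for 3 members. Rbl1 had the largest difference between the genotypes, Cdkn1b is the measured member that earlier work linked to Klf7, and Cdkn2a has 2 promoters whose transcripts share 1 probe set, so the array cannot separate p16 from p19Arf. RefSeq (GRCm38.p6) listed 11 promoter windows for 8 of the 10 members; Cdkn1c and Rb1 were not matched. Each window runs from 250 bases before to 50 bases after the start site and is written 5′ to 3′ on the strand of the gene. Capitals mark the CACCC core that Kruppel-like factors recognise, on either strand (GGGTG on the other), and the E2F-type motif TTTNNCGC, on either strand, where N is any base.
Rbl1, chr2:157204485-157204784, minus strand: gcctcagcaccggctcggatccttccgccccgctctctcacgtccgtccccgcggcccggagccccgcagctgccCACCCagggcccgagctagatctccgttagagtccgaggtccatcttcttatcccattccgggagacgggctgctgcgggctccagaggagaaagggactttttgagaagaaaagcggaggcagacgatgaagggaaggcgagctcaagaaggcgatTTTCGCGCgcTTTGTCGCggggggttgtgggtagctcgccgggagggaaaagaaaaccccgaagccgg
Cdkn1b, chr6:134920151-134920450, plus strand: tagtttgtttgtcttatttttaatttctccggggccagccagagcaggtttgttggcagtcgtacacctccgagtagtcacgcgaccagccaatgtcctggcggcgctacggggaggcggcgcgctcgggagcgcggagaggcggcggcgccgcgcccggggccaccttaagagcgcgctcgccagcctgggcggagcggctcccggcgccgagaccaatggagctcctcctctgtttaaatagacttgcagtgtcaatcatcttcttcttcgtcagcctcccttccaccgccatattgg
Cdkn2a upstream start, chr4:89294570-89294869, minus strand: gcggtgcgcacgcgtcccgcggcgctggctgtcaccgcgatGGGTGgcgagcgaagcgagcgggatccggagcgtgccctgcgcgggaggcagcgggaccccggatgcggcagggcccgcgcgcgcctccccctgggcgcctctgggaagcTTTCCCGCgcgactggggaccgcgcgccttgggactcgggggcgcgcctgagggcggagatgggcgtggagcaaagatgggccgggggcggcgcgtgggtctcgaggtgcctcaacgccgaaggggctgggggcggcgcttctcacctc
Cdkn2a downstream start, chr4:89282143-89282442, minus strand: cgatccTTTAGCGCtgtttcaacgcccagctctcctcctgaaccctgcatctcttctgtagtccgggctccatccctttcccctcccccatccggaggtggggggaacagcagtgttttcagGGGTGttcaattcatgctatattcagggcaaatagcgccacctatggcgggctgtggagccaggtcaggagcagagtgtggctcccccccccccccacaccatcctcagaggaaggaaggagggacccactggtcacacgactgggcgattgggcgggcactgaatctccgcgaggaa

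The Rbl1 window held 2 E2F-type matches side by side, TTTCGCGC beginning at position -18 and TTTGTCGC at position -8 relative to the start site, and 1 CACCC match at position -175. The Cdkn1b window held neither motif. Each Cdkn2a window held 1 match of each motif. Over all 32851 windows in the table, 57.5% held a CACCC match and 5.17% an E2F-type match, against 9 and 3 of the 11 windows of members. No matches of the 2 motifs overlapped in the 4 windows shown. A match describes letters in the window and is no measure of binding.

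Readings are intensities on the log2 scale. A probe set's brightness depends on its probes, so levels are compared between arrays and not between genes. Arrays have no read depth, and precision is limited by their number. The median intensity per array lay between 51.01 and 52.26 on the linear scale. Every reading of a member lay between 5.26 and 9.19, above the 3.13 that 5% of all readings fail to reach, and 7 of the 9 measured members had a mean above the median named gene, at 5.77. These levels do not show that a member is expressed. The means of the 4 INK4 genes ran from 5.54 (Cdkn2b) to 5.80 (Cdkn2a). Those of 5 T cell markers ran from 4.94 (Cd3g) to 6.65 (Thy1). In the gate check, Kit, which encodes the sorted receptor, read 10.12 and 9.92 on the knockout side and 9.55 and 9.71 on the wild-type side, and the Sca-1 gene Ly6a is not analysed here. Of 9 measured stem and progenitor markers, 7 read higher and 1 lower in both knockout arrays than in both wild-type arrays, and none passed the limma threshold. That is 88.9% without overlap, beside 33.2% of all named genes in either direction. Their summed intensity was 5135 and 5212 in knockout, against 4028 and 3728 in wild type. Summed markers of T cells (5 genes) were 254.1 and 283.4 in knockout, against 299.5 and 337.1 in wild type, and those of erythroid cells (4 genes) 194.7 and 253.6, against 199.0 and 212.9. Knockout replicate 1 stood apart in the sums of B cells (5 genes), 558.8 and 186.8 in knockout, against 219.1 and 207.4 in wild type, and of mature myeloid cells (7 genes), 2483 and 648.1 in knockout, against 978.2 and 1722 in wild type. It gave the highest of the 4 readings for 2 B cell and 4 myeloid genes, and the lowest for 1 of each. The B cell marker Vpreb1 read 8.59 there, against 5.49 in knockout replicate 2 and 5.57 and 5.35 in wild type. The myeloid markers S100a8 and S100a9 read 9.59 and 10.40 there. The part of these other cells in the differences below was not tested. In bulk samples, fewer cells of a type and less RNA per cell cannot be told apart. Klf7 itself differed by 0.36 ± 0.21 (SE, n = 2 per group), and was thus not lower in the arrays labelled knockout; since the deleted part is not given, whether this probe set can check the labels is not known. Xist, the only gene past the threshold of 19938, read 11.76 and 11.58 in knockout, against 5.24 and 4.80 in wild type, and the Y-linked gene Eif2s3y read 2.86 and 2.94, against 6.85 and 8.11. Genotype and the sex of the cells therefore cannot be told apart. No measured member is on chromosome X or Y.

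No CDK inhibitor or pocket protein gene passed the test. Knockout was compared with wild type in limma, with Benjamini-Hochberg adjustment over all 28939 probe sets and a threshold of 0.05, and each difference is the knockout mean minus the wild-type mean of log2 readings, with the moderated standard error (SE) and 95% confidence interval. The adjusted p of the 9 members lay between 0.949 and 0.997, and 0 members had an unadjusted p under 0.05. Over all named genes 0.00502% passed the adjusted threshold and 4.81% had an unadjusted p under 0.05. The Y-linked gene Eif2s3y, 23.9-fold apart, did not pass (adjusted p = 0.648 in limma). The absence of a call therefore does not show that a gene is unchanged. An exact permutation test of 2 against 2 arrays cannot go below p = 0.333 (two-sided), so none was run. Two-sided tests were used throughout.

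**Figure D1:**
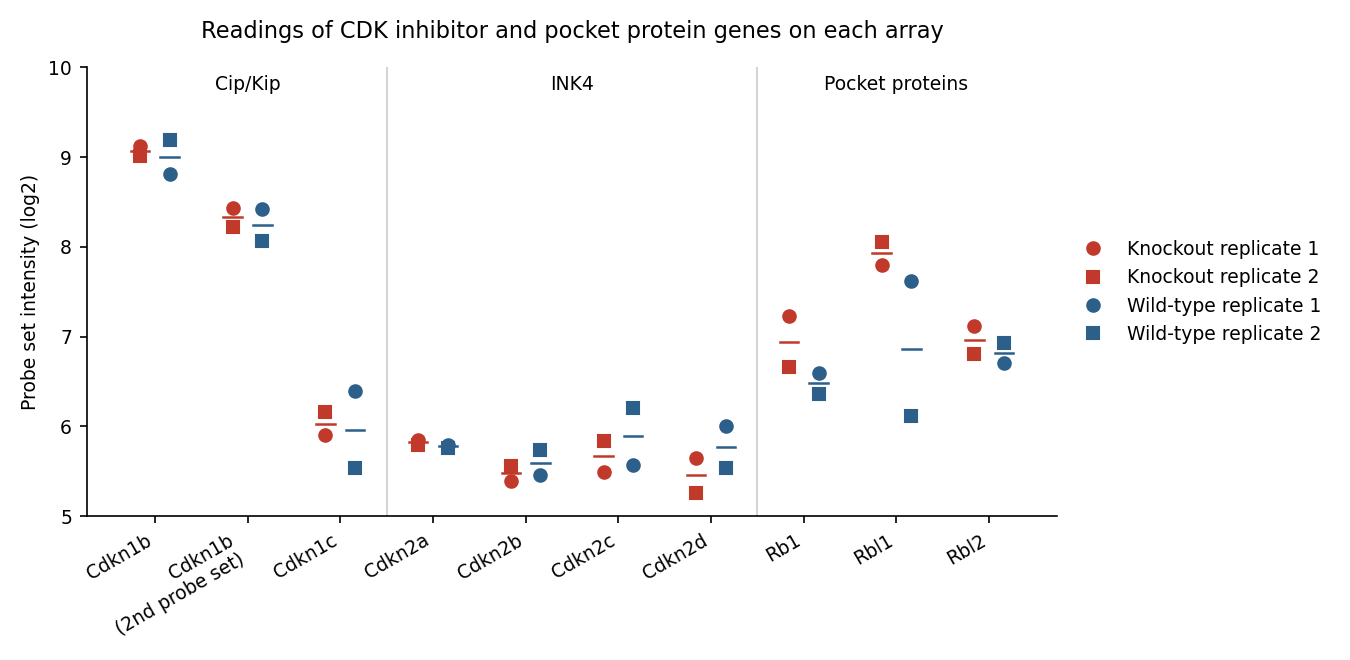
Log2 intensity of each member probe set on each array, with knockout arrays in red and wild-type arrays in blue, circles for replicate 1, squares for replicate 2 and a short line at the mean of each group. Only Rb1 and Rbl1 have both knockout readings above both wild-type readings, and the Rbl1 reading of wild-type replicate 2, at 6.12, stands apart from the other 3.

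Among the Cip/Kip genes, Cdkn1b and Cdkn1c both differed by 0.07 between the genotypes. Cdkn1b encodes p27, which blocks cyclin E-CDK2. On its brighter probe set the knockout readings were 9.12 and 9.02, and the wild-type readings were 8.81 and 9.19. The wild-type arrays thus enclosed both knockout arrays. The difference was 0.07 ± 0.20 (95% confidence interval -0.45 to 0.59, adjusted p = 0.997 in limma). The dimmer Cdkn1b probe set had knockout readings of 8.43 and 8.22 and wild-type readings of 8.42 and 8.06, and differed by 0.09 ± 0.20. The 2 probe sets gave differences of the same sign and nearly the same size. They placed the arrays differently, with wild-type replicate 2 the highest of the 4 on the brighter and the lowest on the dimmer.

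Cdkn1c encodes p57, an inhibitor expressed from the maternal allele of an imprinted cluster and abundant in quiescent stem cells. It read 5.90 and 6.17 in knockout, against 6.40 and 5.54 in wild type. Both the highest and the lowest reading were wild-type ones. The difference was 0.07 ± 0.33, with an interval of -0.81 to 0.94 that reaches from 0.572-fold to 1.92-fold. The gap between the wild-type arrays, 0.86, was larger than that of all but 6.70% of named genes. Leaving out an array turned the direction of both genes: Cdkn1b stood at -0.12 without wild-type replicate 1, and Cdkn1c at -0.36 without wild-type replicate 2 and -0.07 without knockout replicate 2.

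Of the 4 INK4 genes, 1 averaged higher and 3 lower in knockout, and the readings of the genotypes overlapped for each. Cdkn2a encodes p16 and, from another reading frame, p19Arf, which stabilises p53. Its readings were 5.85 and 5.80 in knockout, against 5.80 and 5.76 in wild type. Knockout replicate 2 and wild-type replicate 1 had the same value. The difference was 0.04 ± 0.15, with an interval of -0.36 to 0.44, the narrowest of the members; its bounds correspond to 0.780-fold and 1.36-fold. The 4 readings spanned 0.08, and their mean lay just above the median named gene.

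Cdkn2b, which encodes p15, an inhibitor induced by TGF-beta, read 5.39 and 5.57 in knockout, against 5.46 and 5.73 in wild type. The groups interleaved, with a difference of -0.12 ± 0.18. Cdkn2c encodes p18, whose loss in mice expands stem cells. Knockout readings were 5.49 and 5.84, wild-type readings 5.57 and 6.20, and the difference -0.22 ± 0.28 (interval -0.96 to 0.52). Wild-type replicate 2 gave the highest reading of both genes, and without it the differences were 0.02 for Cdkn2b and 0.09 for Cdkn2c. Cdkn2d, which encodes p19 of the INK4 family, a protein distinct from p19Arf, read 5.65 and 5.26 in knockout, against 6.00 and 5.54 in wild type. Knockout replicate 1 lay between the wild-type readings and knockout replicate 2 below both. The difference of -0.32 ± 0.25 (interval -0.97 to 0.34) was the lowest of the members, and it stood at -0.09 without wild-type replicate 1.

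The pocket protein genes all read higher on average in knockout, without passing the test. Rb1 encodes the retinoblastoma protein. Its knockout readings were 7.23 and 6.66, beside wild-type readings of 6.59 and 6.37. Both knockout readings were above both wild-type readings, the nearest by 0.07. The difference was 0.46 ± 0.25 (interval -0.20 to 1.13, adjusted p = 0.949 in limma), a 1.38-fold higher mean, and the gap between the knockout arrays alone was 0.57. The higher of them was replicate 1, the array with the high Vpreb1 reading and the high B cell and myeloid sums, whose part was not tested. Without knockout replicate 1 the difference was 0.18, and without knockout replicate 2 it was 0.75.

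Rbl1 encodes p107, a pocket protein whose own gene is known to be driven by E2F and to be expressed in cycling cells. The knockout readings were 7.80 and 8.06, and the wild-type readings 7.62 and 6.12. Without wild-type replicate 2 the other 3 readings spanned 0.44, and only 1.26% of named genes had a larger gap between the wild-type arrays. The difference was 1.06 ± 0.52 (interval -0.31 to 2.44, adjusted p = 0.949 in limma), which corresponds to 2.09-fold with bounds of 0.805-fold and 5.41-fold. Without wild-type replicate 2 it was 0.31, and without wild-type replicate 1 it was 1.81. The value therefore rests on which wild-type array is kept.

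Rbl2 encodes p130, the pocket protein of resting cells. Readings were 7.11 and 6.80 in knockout, against 6.70 and 6.93 in wild type. The readings interleaved. The difference was 0.14 ± 0.20 (interval -0.38 to 0.66) and stood at -0.01 without knockout replicate 1.

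**Figure D2:**
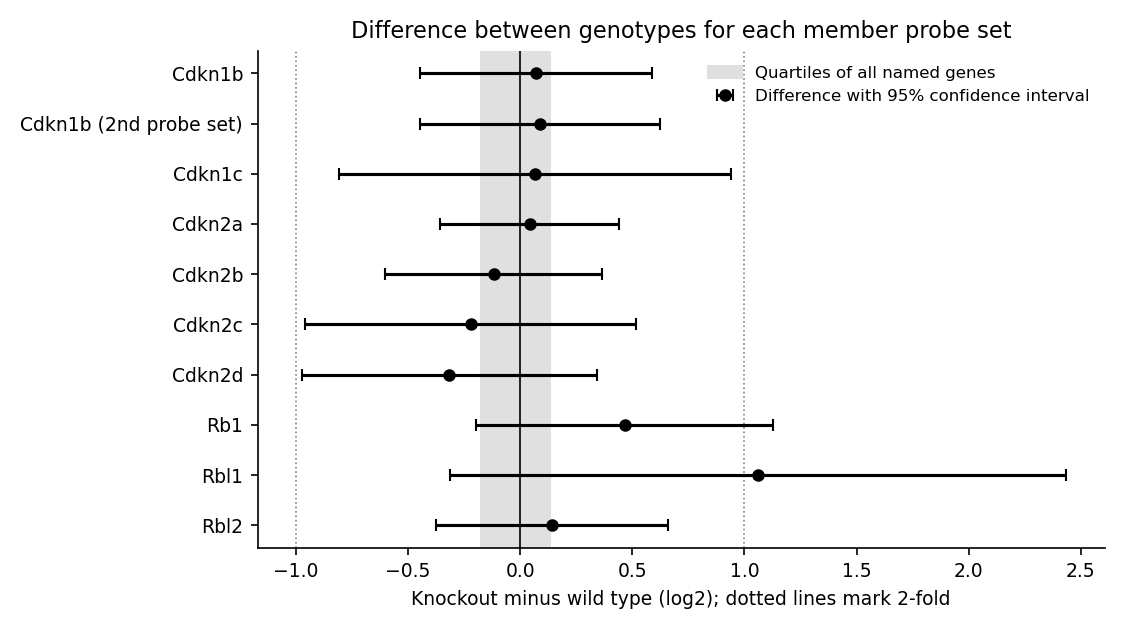
Difference between knockout and wild type (log2) for each member probe set, with bars for the 95% confidence interval of the limma fit, a grey band for the quartiles of all named genes (-0.18 to 0.13) and dotted lines at 2-fold. All 10 intervals include 0, and those of Rb1 and Rbl1 extend past 2-fold.

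Across the 9 members, 6 read higher and 3 lower on average in knockout, and 45.0% of all named genes read higher. The median difference was 0.07, against -0.03 over all named genes, and the median absolute difference was 0.14, against 0.16. Both knockout readings lay above both wild-type readings for 2 members, Rb1 and Rbl1. That is 22.2% of the members, beside 33.2% of all named genes whose groups do not overlap in either direction and 14.5% that are higher in knockout without overlap. At least 2-fold apart without overlap were 1 member, Rbl1, beside 1.22% of named genes in either direction and 0.732% higher in knockout. Rbl1 no longer met this limit without knockout replicate 2, when its difference was 0.93, or without wild-type replicate 2. For all 9 members the difference was smaller than the larger of the 2 gaps between replicate arrays. The interval lay within 2-fold in both directions for 7 members, so for these a change of that size in the readings lies outside the interval, while Rb1 and Rbl1 allow one. The INK4 genes and Cdkn1c had means in the range of the T cell markers. Whether their RNA was detected was not tested, so for them the interval sets no bound on RNA. The members shared no single order of arrays: the lowest of the 4 readings was in wild-type replicate 2 for 4 members, and the highest was also there for 3.

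**Figure D3:**
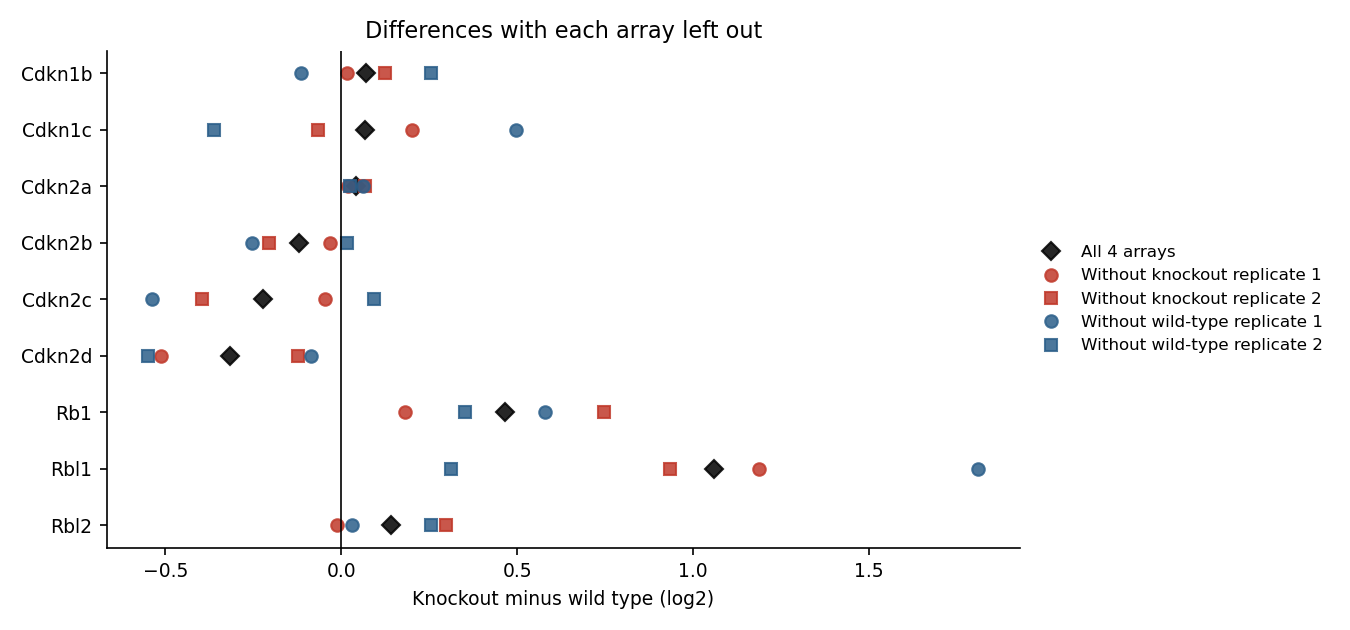
Difference between knockout and wild type (log2) for each measured member with all 4 arrays (black diamonds) and with each array left out (red for a knockout array, blue for a wild-type array, circles for replicate 1, squares for replicate 2). Rbl1 ranges from 0.31 to 1.81 and Rb1 from 0.18 to 0.75, while the points of Cdkn1b, Cdkn1c, Cdkn2b, Cdkn2c and Rbl2 lie on both sides of 0.

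The genes with which these proteins act gave no call either, which with 2 arrays per group does not show that they are unchanged. In 9 lists with 107 measured genes, 0 passed the limma threshold, and 6 had an unadjusted p under 0.05, which is 5.61%, beside 4.81% of all named genes. The groups did not overlap for 29.0% of them, beside 33.2% of all. Over all named genes, 45.0% read higher in knockout. The list of G1 cyclins and their kinases, the targets of the inhibitors, also took in Ccna2 and Cdc25a, which are neither G1 cyclins nor kinases. Of its 10 genes, 6 stood higher and 4 lower in knockout, with a median difference of 0.03. The largest were Ccna2, the cyclin A2 gene, at -0.46 ± 0.37 and Cdc25a, the gene of a phosphatase that activates CDK2, at 0.32 ± 0.30; without wild-type replicate 1 Ccna2 stood at -0.05, and without knockout replicate 1 Cdc25a stood at -0.07. Of the 10 E2F and DP genes, which encode the partners of the pocket proteins, 8 stood higher, with a median of 0.12. E2f6 differed by 0.21 ± 0.43 and E2f3 by -0.19 ± 0.70, and both changed sign when wild-type replicate 2 was left out, to -0.26 and 0.86. These E2f3 values are of the brighter of its 2 probe sets. The other differed by -0.05, and the mean of both by -0.12 ± 0.33. E2f5, chosen after its values were seen, encodes an E2F bound by p130 and read 5.94 on both knockout arrays, against 5.46 and 5.23 on the wild-type arrays (0.59 ± 0.17, adjusted p = 0.945 in limma). Its mean of 5.64 lay below the median named gene.

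The MuvB core, which joins RBL1 or RBL2 in DREAM, and its activating partners stood higher for 5 of 7 genes with a median of 0.19. The core subunit gene Lin37 differed by 0.46 ± 0.32 and the mitotic activator gene Foxm1 by -0.54 ± 0.35, with values of 0.11 for Lin37 without wild-type replicate 2 and -0.09 for Foxm1 without knockout replicate 2. Among 19 E2F targets of S phase, 15 stood higher and 4 lower, beside 45.0% of all named genes that read higher. Their median was 0.14, and the groups did not overlap for 31.6%, beside 33.2% of all named genes. Chaf1b, a chromatin assembly factor gene, read 6.43 and 6.51 in knockout, against 5.71 and 5.63 in wild type (0.81 ± 0.15, adjusted p = 0.945 in limma). Its replicates lay close together in both groups. Pole, the gene of a replicative DNA polymerase, differed by 0.74 ± 0.23 and stood at 0.48 without knockout replicate 2. Of 13 DREAM targets of mitosis, 5 stood higher and 8 lower, with a median of -0.07. Bub1, a spindle checkpoint kinase gene, differed by 0.59 ± 0.40 and stood at 0.06 without wild-type replicate 1. Aurkb, the Aurora B kinase gene, had knockout readings of 7.42 and 7.37 below wild-type readings of 7.80 and 7.75, and differed by -0.38 ± 0.15.

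**Figure D4:**
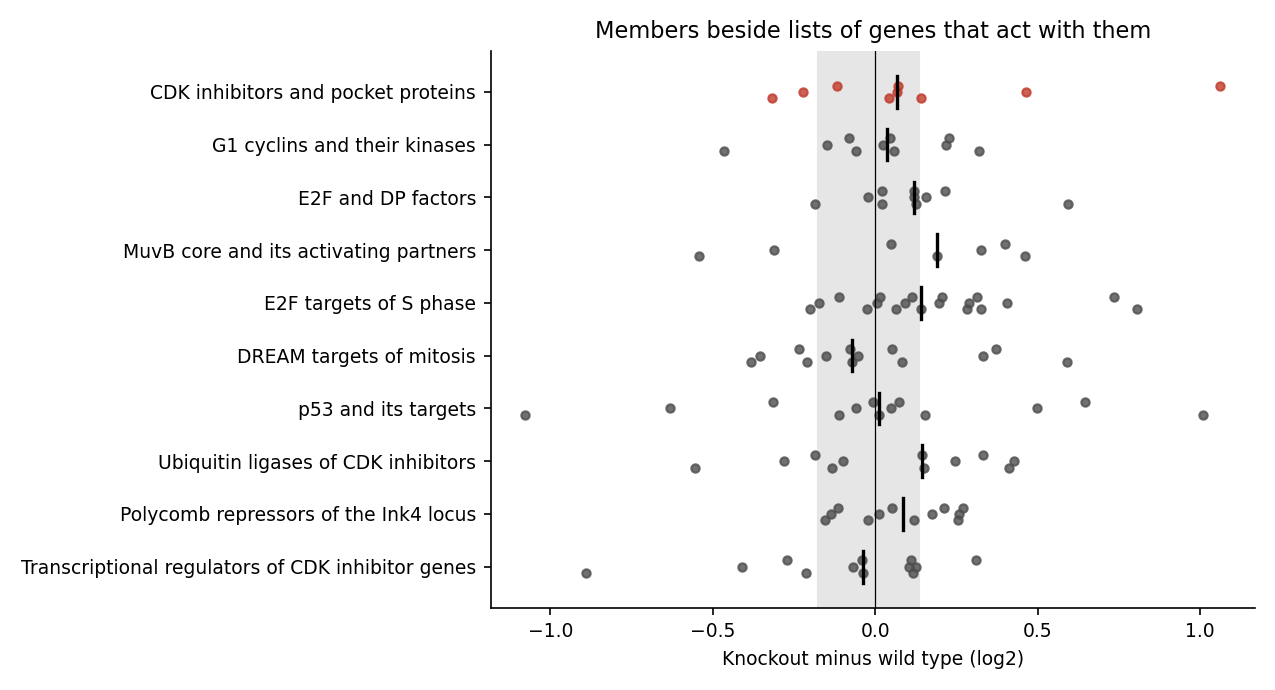
Difference between knockout and wild type (log2) of each measured gene, by list, with the members in red, a black bar at each list's median and a grey band for the quartiles of all named genes. The list medians run from -0.07 for the mitotic DREAM targets to 0.19 for MuvB, and no gene shown passed the test.

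Targets of p53 and regulators of the members were likewise spread around 0. Of 13 measured targets of p53, the factor that drives Cdkn1a and whose own gene Trp53 is not analysed here, 7 stood higher and 6 lower, with a median of 0.01. Btg2, an antiproliferative gene, read 8.48 and 8.99 in knockout, against 10.01 and 9.61 in wild type (-1.08 ± 0.26, adjusted p = 0.945 in limma). Trp53inp1 differed by 0.65 ± 0.28 and stood at 0.32 without wild-type replicate 2. Btg2 and Plk2 were the 2 genes of all 9 lists at least 2-fold apart without overlap. The polo-like kinase gene Plk2, chosen after its values were seen, differed by 1.01 ± 0.32. It read 5.05 and 5.56 in knockout, against 4.64 and 3.95 in wild type, with a mean of 4.80, below the median named gene. Btg2 and Plk2 are 1.87% of the 107 genes, beside 1.22% of all named genes. Both kept their direction with each array left out, but whether they reached 2-fold depended on single arrays. Btg2 stood at -0.82 without knockout replicate 1 and -0.88 without wild-type replicate 1, and otherwise at -1.33 and -1.28. Plk2 stood at 0.75 without knockout replicate 2 and 0.66 without wild-type replicate 2, and otherwise at 1.26 and 1.36. The ubiquitin ligases that degrade p27 and p21 had 6 genes higher and 5 lower, with a median of 0.15 and no overlap for 54.5%, beside 33.2% of all named genes. Ddb1, a subunit of the CUL4 ligase, differed by -0.55 ± 0.23 and Cops5, the catalytic subunit gene of the COP9 signalosome, by 0.43 ± 0.16; Ddb1 stood at -0.30 without knockout replicate 2. The 12 measured Polycomb repressors of the Ink4 locus had a median of 0.08, with Rnf2 at 0.27 ± 0.26 and Eed at 0.26 ± 0.16. Eed stood at 0.16 without wild-type replicate 2, and its dimmer probe set differed by 0.39. The 12 transcriptional regulators of CDK inhibitor genes had a median of -0.04, with Egr1 at -0.89 ± 0.23 and Smad3 at -0.41 ± 0.33. Smad3 stood at 0.04 without wild-type replicate 1, and Rnf2 at -0.02.

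Since Rbl1 had the largest difference, its pattern over the 4 arrays was set beside those of 9968 other named genes above the median level, by the root mean square distance between log2 readings centred on each gene's mean. The nearest were Spcs1, a signal peptidase subunit gene, at 0.132, Pnpt1, which encodes a mitochondrial polynucleotide phosphorylase, at 0.148, and the X-linked gene Armcx3 at 0.150. Spcs1 had knockout readings of 9.96 and 9.89 and wild-type readings of 9.76 and 8.22. Pnpt1 read 7.87 and 8.23 in knockout, against 7.41 and 6.25 in wild type. Like Rbl1, all 3 were lowest in wild-type replicate 2, which follows from how they were chosen. By another measure, 294 of the 9968 genes had a Pearson's r of at least 0.95 with Rbl1. With 4 arrays such likeness is thus not particular to these 3. The S phase E2F targets had their lowest reading in wild-type replicate 2 for 9 of 19 genes, and their median centred reading was 0.12 and 0.06 in knockout, against 0.05 and -0.19 in wild type. The share of all named genes with their lowest reading on that array was not counted. Over all named genes the 2 wild-type arrays had a Pearson's r of 0.9525. Wild-type replicate 1 had 0.9604 and 0.9575 with the knockout arrays, and wild-type replicate 2 had 0.9545 and 0.9519. The part of wild-type replicate 2 in the Rbl1 value was not tested beyond leaving it out.

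**Figure D5:**
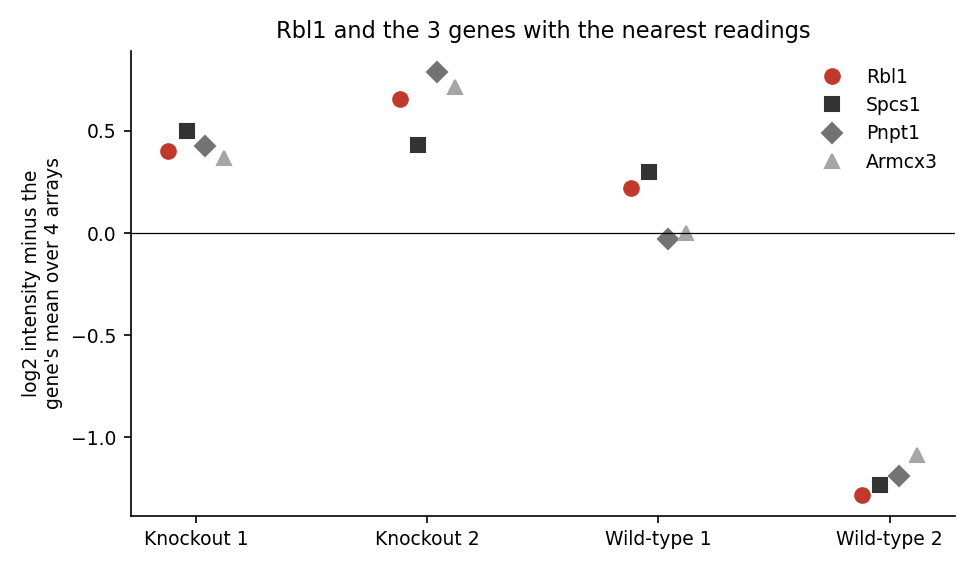
Log2 intensity of Rbl1 and of the 3 genes with the nearest pattern on each array, each centred on its own mean over the 4 arrays. All 4 genes lie more than 1 below their mean in wild-type replicate 2. The other 3 were chosen for their likeness to Rbl1, so this shared low reading follows from the choice.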

How the data were processed

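The authors deposited 1 table of intensities per probe set and array, on a linear scale judging from its maximum of 17720.8. Per the submitters' processing notes, RMA and Affymetrix Expression Console were used; settings, versions and genome build are not given in the sources used here. The members and gene lists were chosen with earlier results of these data known.

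Groups and replicate numbers came from the sample titles. Log2 was taken and no further normalization applied. Of 35554 probe sets, the 6615 with IDs before the first annotated one were taken as controls, an assumption, and left out. In the platform annotation of 2016, 21789 of the rest had 1 symbol, 1621 had several and 5529 were unlisted; 21698 were matched to RefSeq (GRCm38.p6) by Entrez ID for current symbols and chromosomes. A gene with several probe sets was represented by the one with the highest mean.

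Knockout was compared with wild type over all 28939 probe sets in R 4.3.3 with limma 3.58.1 (lmFit, eBayes, 2 residual degrees of freedom), tested on simulated data. Every member is named. Of each other list, genes past the threshold were named, or else up to 2 above the median gene level with the largest absolute difference; other genes are marked. The alternative fits omitted single arrays, removed dim probe sets, added 32 to each intensity, normalized again by cyclic loess or by quantiles, let the variance depend on intensity (also robustly), blocked on replicate number, or averaged a gene's probe sets. A limit of 1.5-fold was also tried.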

Additional observations from a re-analysis of the deposited data

How the results depend on the processing

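No member passed the threshold under any of the 12 alternative fits, where the lowest adjusted p of a member was 0.603 (Rbl1 without wild-type replicate 1), and the members' median difference stayed between 0.02 and 0.09 with an array left out. The number of named genes past the threshold, 1 in the limma fit as reported, was 0 with repeated quantile normalization, 0 with an offset of 32, 0 with intensity-dependent variance, 0 with its robust form, 0 with the replicate block, and 0 to 0 with each array left out. The labels do not say that equal replicate numbers mark one mouse, and deviations of same-numbered arrays correlated at 0.0288 across genes; with the block, 0 members passed. The number of members at least 2-fold apart without overlap was 0 once 32 was added to every intensity, and from 0 to 1 when single arrays were omitted.

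Of 324 single-gene values under alternatives, 312 kept direction and side of the threshold, and 12 changed sign, all with an array left out. These ran from -0.12 to 0.26 for Cdkn1b, -0.36 to 0.50 for Cdkn1c, -0.26 to 0.017 for Cdkn2b, -0.54 to 0.094 for Cdkn2c, -0.013 to 0.30 for Rbl2, -0.071 to 0.71 for Cdc25a, -0.26 to 0.68 for E2f6, -1.23 to 0.86 for E2f3, -0.021 to 0.56 for Rnf2 and -0.86 to 0.041 for Smad3; the cause was not tested. None of the genes followed in these counts had passed the threshold, and Xist was not among them, so the counts say nothing of calls. Direction could not change where a fit leaves each difference as it was. This held for the dim probe set filter, both forms of intensity-dependent variance and the replicate block. Averaging probe sets likewise could not move a gene with 1 probe set. The count of kept directions therefore overstates how stable the values were. No measure of signal over background was used.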
